A study of Mus musculus with 18 samples.

Results

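The comparison described here set PIP4K2B-depleted C2C12 cells that carried wild-type TAF3 and received etoposide against the same cells after differentiation. Its members were the 3 etoposide arrays and the 3 differentiation arrays labelled with both the PIP4K2B shRNA and the WT-TAF3 rescue, 6 of the 18 arrays in the series. C2C12 is an established mouse myoblast line. In all 18 arrays endogenous TAF3 had been depleted with retroviral shRNAs against its transcript, of which the study used 2, and the cells had been rescued with a murine TAF3 transgene from a retroviral vector, either wild type (WT-TAF3) or KK-TAF3, a mutant whose PHD finger no longer binds phosphoinositides. The tested arrays came from PIP4K2B-depleted WT-TAF3 cells given 10 µM etoposide for 7 h. They were set against PIP4K2B-depleted WT-TAF3 cells kept for 2 days in differentiation medium with 2% horse serum, while growth medium held 10% FCS. The same contrast was measured on 3 and 3 arrays of PIP4K2B-depleted KK-TAF3 cells and on 3 and 3 arrays of WT-TAF3 cells without PIP4K2B depletion, and those 12 arrays are used to show where the PIP4K2B-depleted WT-TAF3 cells differed and, in the joint fit, to estimate the spread between replicates. The labels name no control shRNA for the undepleted arrays. Drug, medium and time changed together and no untreated, undifferentiated array was compared, so whether a gene's difference came from the drug or from differentiation cannot be told apart.

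Etoposide holds topoisomerase II on the DNA it has cut, which leaves double-strand breaks, and the breaks activate ATM and the transcription factor p53. Myoblasts moved to low serum leave the cell cycle, switch on myogenin under the control of MyoD, fuse through the membrane proteins myomaker and myomixer, and build sarcomeres, and the Id proteins hold this programme back by pairing with the partners of MyoD. TAF3 is a TFIID subunit whose PHD finger reads trimethylated lysine 4 of histone H3 and also binds phosphoinositides, and PIP4K2B is a kinase that turns PI5P into PI(4,5)P2.

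Values are log2 signals after RMA, and every difference is etoposide minus differentiation on that scale. A gene was called when limma gave a Benjamini-Hochberg adjusted p under 0.05 and the difference was over 1.4-fold. The array medians were 7.32, 7.46 and 7.43 with etoposide and 7.33, 7.25 and 7.30 after differentiation, and the median SD of a gene between replicates was 0.137 and 0.0730. The etoposide arrays were therefore the more variable set, and etoposide array 1 had the lowest median of its group. Replicate arrays of each group correlated at 0.994 or above.

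The Pip4k2b signal was 9.92, 9.74 and 9.63 with etoposide and 9.46, 9.64 and 9.55 after differentiation, and its difference of 0.22 ± 0.10 (SE) did not pass the threshold (adjusted p = 0.10). Against WT-TAF3 cells without the shRNA it was 0.542 times as high with etoposide and 0.453 times as high after differentiation, so the depletion was seen under both treatments. Taf3 signal, which mixes endogenous and rescue transcripts as far as the probes reach both, differed by 0.05 ± 0.07 (adjusted p = 0.57). The summed log2 signal of 4 myoblast markers was 43.7 to 44.0 with etoposide and 43.6 to 43.8 after differentiation, and that of 6 myotube markers was 47.8 to 49.1 with etoposide and 55.1 to 55.3 after differentiation, with 5 of the 6 called lower. Among the short sets of defining markers for macrophages, fat, endothelium, neurons or glia, epithelium and bone, none of the markers measured was called, while wider lists for epithelium and neurons held 3 called genes, given with those lists.

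Of 19938 genes, 1983 were called, which is 9.95% of those tested. There were 726 genes (3.64%) higher and 1257 genes (6.30%) lower in etoposide-treated cells. The counts of each gene list below are to be read beside these shares, and no list was tested against them. The excess of lower calls stood among genes with strong signal: among the 9969 genes with a mean signal above the median 587 were higher and 1097 lower, and among the 9969 below it 139 were higher and 160 lower. The split depended on how the arrays were levelled. Centring each array on its median gave 473 higher and 1730 lower genes, a second quantile normalization gave 826 and 1141, and taking the array median as a covariate gave 634 and 527, which also moved the median difference of all genes to -0.05 against 0.07. With that covariate 1161 genes were called, and 935 of them were among the 1983. In bulk arrays such as these, fewer cells of a type and less RNA per cell cannot be told apart.

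The 12 largest rises, taken among annotated genes whose arrays did not overlap, were led by Anxa8, which encodes an annexin. Anxa8 signal was 11.45, 11.41 and 11.36 with etoposide and 8.74, 8.68 and 8.71 after differentiation. Its difference of 2.70 ± 0.06 (SE, adjusted p = 1.0e-15) was 6.49-fold, and the groups were many times farther apart than their replicates. Next came Id2 (2.64), the NAD(P)H quinone oxidoreductase gene Nqo1 (2.08), the tubulin-binding stathmin gene Stmn2 (2.02), the galectin gene Lgals2 (2.01), Id3 (1.94), the metalloprotease gene Adam8 (1.85), the cytidine deaminase gene Cda (1.75), the versican gene Vcan (1.71), the stress-induced sestrin gene Sesn2 (1.66), the cytokine signalling inhibitor gene Socs2 (1.66) and Fxyd5 (1.58), which encodes a regulator of the sodium pump. Separated arrays were a condition for this choice, so nothing is read from the separation. Among all genes every etoposide array lay above every differentiation array in 22.8% and below in 19.9%. Genes chosen by their calls tend to have separated arrays. Where separation is given below for called genes, it describes them and adds no support to the calls.

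**Figure D1:**
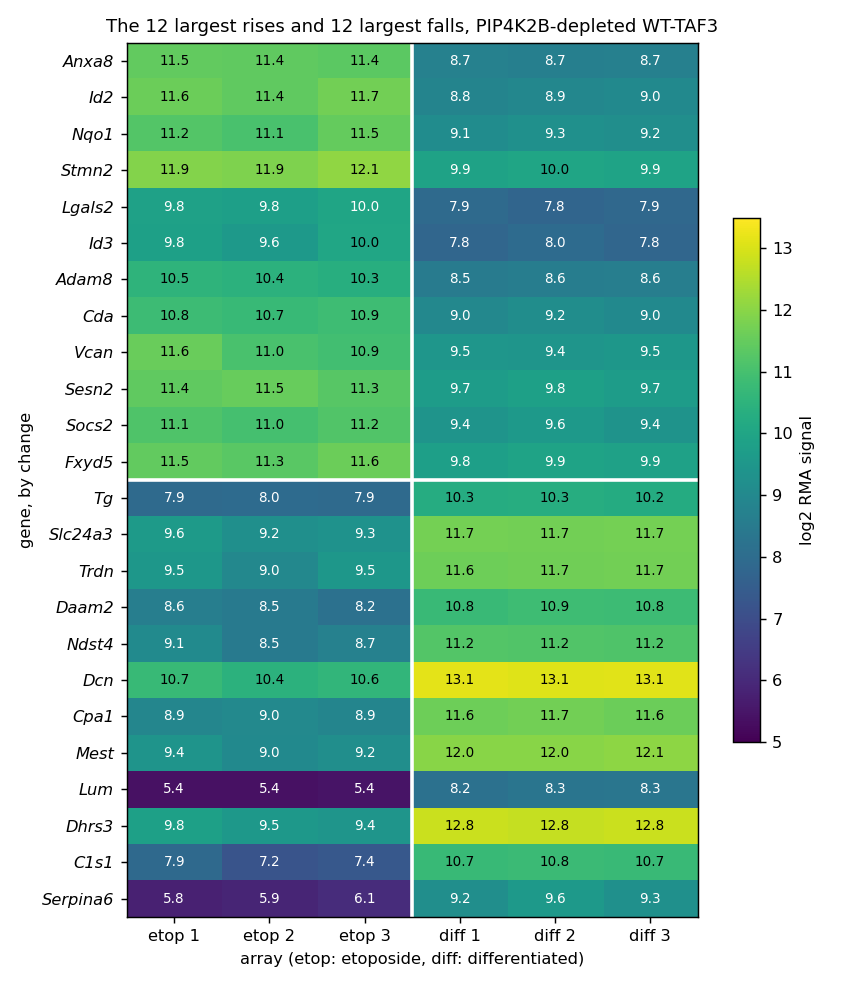
Log2 RMA signal (colour and printed value) of the 12 genes with the largest rise and the 12 with the largest fall, rows in order of the difference, on the 3 etoposide arrays (left) and the 3 differentiation arrays (right) of PIP4K2B-depleted WT-TAF3 cells. The differences ran from 2.70 for Anxa8 to -3.42 for Serpina6. Replicates were closer in some rows than in others, and Vcan ran from 10.94 to 11.55 on the etoposide arrays.

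The 12 largest falls by the same rule were led by Serpina6, C1s1 and Dhrs3. Serpina6, which encodes the corticosteroid-binding globulin of plasma, had signals of 5.79, 5.89 and 6.08 with etoposide and 9.20, 9.56 and 9.25 after differentiation, 10.7-fold lower (-3.42 ± 0.12, adjusted p = 9.0e-13). The complement protease gene C1s1 was 9.58-fold lower, with 7.91, 7.20 and 7.35 against 10.71, 10.78 and 10.75. The retinaldehyde reductase gene Dhrs3 was 9.13-fold lower, with 9.84, 9.52 and 9.45 against 12.82, 12.75 and 12.81. C1s1 was the most variable of the 3 on the etoposide arrays. Lum (-2.86), Mest (-2.82), the carboxypeptidase gene Cpa1 (-2.70), Dcn (-2.53), the heparan sulfate enzyme gene Ndst4 (-2.44), the Wnt signalling gene Daam2 (-2.38), the triadin gene Trdn (-2.34), the sodium/potassium/calcium exchanger gene Slc24a3 (-2.32) and Tg (-2.32), known as the thyroglobulin gene, completed the list. All 24 genes were also called in the same direction in undepleted WT-TAF3 cells and in PIP4K2B-depleted KK-TAF3 cells.

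Myogenin, myomaker and a minority of the structural genes of muscle were lower in etoposide-treated cells. Myog, the gene of myogenin, had signals of 6.76, 7.13 and 6.91 with etoposide and 7.82, 8.07 and 7.96 after differentiation, a difference of -1.01 ± 0.09 (adjusted p = 1.2e-07). Mymk, which encodes the fusion protein myomaker, had 7.65, 8.08 and 7.84 with etoposide and 9.62, 9.63 and 9.75 after differentiation, 3.50-fold lower (-1.81 ± 0.11, adjusted p = 3.7e-10). Both genes were lower on every etoposide array than on any differentiation array. Myod1 (-0.44) and Myf5 (0.26), the myoblast determination genes, did not pass the 1.4-fold limit.

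Some inhibitors of myogenesis, led by Id2 and Id3, stood on the other side. Id2 signal was 11.60, 11.42 and 11.69 with etoposide and 8.83, 8.93 and 9.03 after differentiation, 6.23-fold higher (2.64 ± 0.11, adjusted p = 3.2e-12). Id3 signal was 9.82, 9.58 and 10.02 against 7.81, 7.97 and 7.82, 3.85-fold higher. The arrays of both genes were wide apart by treatment. Id1 (0.52) and the musculin gene Msc (0.50), another repressor of the MyoD family, were called higher by small margins and lost the call with the array-median covariate and without etoposide array 3. Of 24 regulators of myogenesis 4 were called higher and 1 lower. Id4 (0.39), Hdac9 (0.39), Mdfi (0.23), Twist1 (0.20), Mstn (0.03) and Bhlhe41 (0.01) of that list were not called. They were named after their values were seen.

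**Figure D2:**
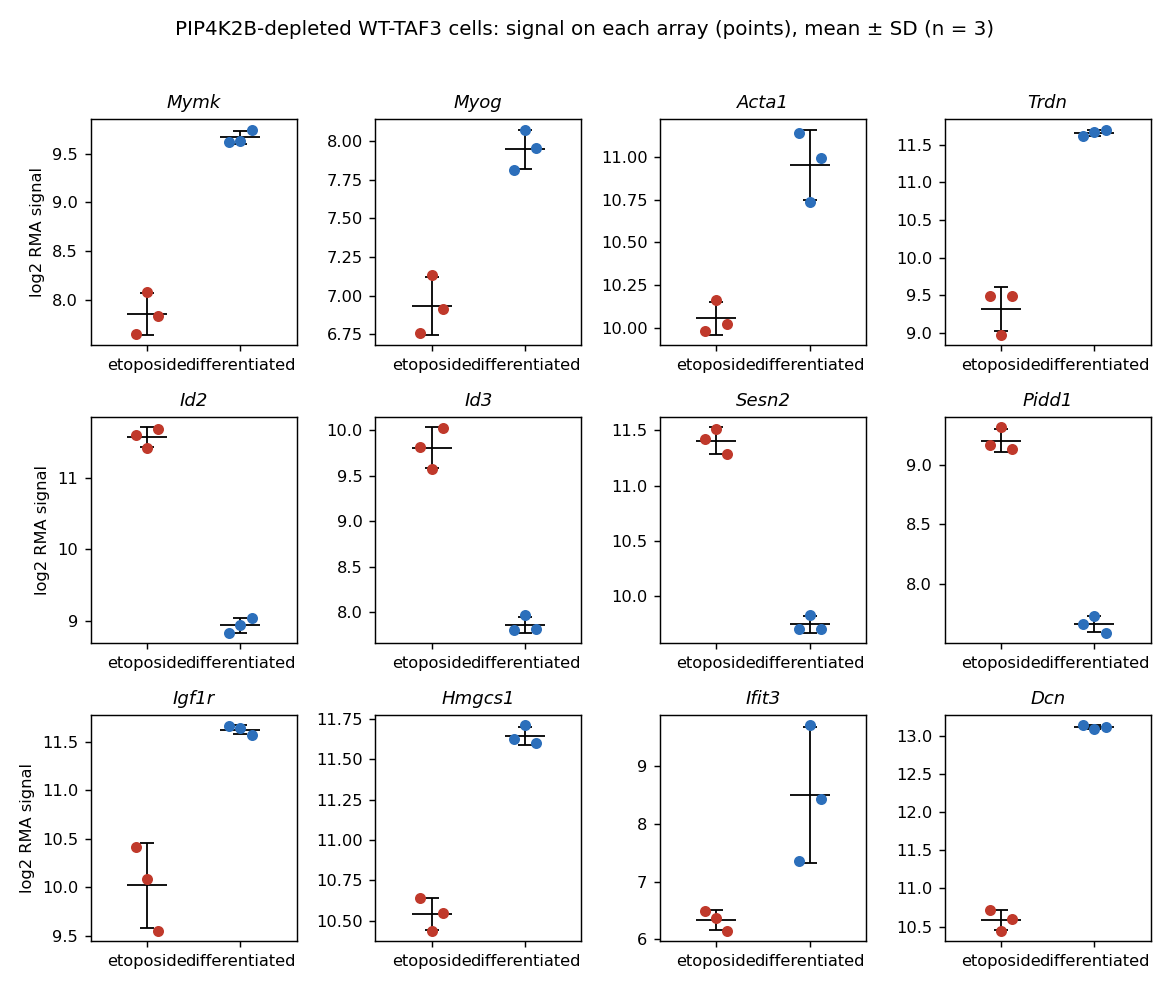
Log2 RMA signal of 12 genes on each array (points) with mean ± SD (bars, n = 3 per group) for etoposide-treated cells (red, left) and differentiated cells (blue, right), each panel on its own axis. Myog, Mymk, Acta1 and Trdn lay lower and Id2, Id3, Sesn2 and Pidd1 higher with etoposide with no overlap between groups, and Ifit3 was spread over the 3 differentiation arrays from 7.36 to 9.71.

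Of 55 sarcomere genes 10 were called lower and 1 higher, and the median over all 55 was 0.08, near the 0.07 of all genes. The 10 lower genes encode parts of the thin filament, the thick filament and the M line. The fast troponin T gene Tnnt3 had 9.40, 9.46 and 9.32 with etoposide and 10.97, 11.01 and 10.89 after differentiation (-1.56 ± 0.07, adjusted p = 1.4e-11). Tnnc1, the slow and cardiac troponin C gene, had 8.29, 8.21 and 8.48 against 9.59, 9.99 and 9.81 (-1.47). Acta1, the skeletal alpha-actin gene, had 9.98, 10.16 and 10.02 with etoposide and 11.14, 10.73 and 10.99 after differentiation (-0.90 ± 0.10). In each of the 3 genes every etoposide array was below every differentiation array. The embryonic myosin heavy chain gene Myh3 (-1.01), the M-line gene Myom2 (-1.38), the myosin light chain genes Mylpf (-0.998), Myl4 (-0.90) and Myl1 (-0.52), Mybph (-0.63) and cardiac alpha-actin, Actc1 (-0.54), were also called, Mybph, Myl4 and Actc1 being named after their values were seen. The desmin gene Des was the member called higher (0.51). Adult myosin heavy chain genes lay close to 0, with Myh1 at 0.07, Myh2 at 0.13 and Myh4 at 0.10, and Ttn, the titin gene, at -0.45 did not pass.

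Of 31 genes of excitation-contraction coupling and the neuromuscular synapse 3 were called lower and 1 higher. The brightest of the 19 rows that the annotation gives to Trdn, whose product anchors calsequestrin at the calcium release site, had 9.49, 8.98 and 9.50 with etoposide and 11.62, 11.67 and 11.70 after differentiation (-2.34 ± 0.11, adjusted p = 1.4e-11). The calsequestrin gene Casq2 had 6.62, 6.46 and 6.69 against 7.63, 7.74 and 7.86 (-1.15). The third was Cacna2d1 (-0.69), a calcium channel subunit gene that lost its call with the covariate, and Cacng1, another channel subunit gene, was higher (0.80). Of 30 fusion genes 8 were called lower and 1 higher. The lower members after Mymk were adhesion and signalling genes, among them the integrin alpha 7 gene Itga7 (-0.79), the N-cadherin gene Cdh2 (-0.65) and the nephrin-like adhesion gene Kirrel (-0.63), while the junction gene Jam2 was higher (1.13) and Mymx, the myomixer gene, at 0.19 was not called. Lower fusion calls numbered 5 with the array-median covariate. In muscle metabolism 2 of 22 genes were called higher, the cytochrome oxidase subunit gene Cox7a1 (0.88) and the adenylate kinase gene Ak1 (0.72). None was called lower, and 1 was with the array-median covariate. The muscle creatine kinase gene Ckm (-0.44) and Phka1 (-0.47) had adjusted p under 0.05 but did not pass the 1.4-fold limit. Phka1 was named after its value was seen.

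Promoters of the sarcomere genes are shown because MyoD and myogenin bind E-boxes, of which CAGCTG is the form that was searched. It reads the same on both strands. RefSeq promoters of build GRCm38.p6 were taken from 250 bases before to 50 bases after an annotated start of a gene. That start was not always the outer end of the gene. The Myl1 window (chr1:66945007-66945306, minus strand) lay inside the gene, which runs from 66924295 to 66947932. The Mylpf window (chr7:127211358-127211657, plus) lay inside a gene that runs from 127208848 to 127214288. CAGCTG stood in 16.3% of all 32851 promoters. It stood in 16 of the 43 sarcomere promoters available and in 4 of the 8 available among sarcomere genes called lower. The share of all counts promoters, which outnumber the genes tested, while the list counts are of genes, so the units differ. Motifs searched for the G2 and M phase, replication and NRF2 lists are not shown. The 60 bases around the matches are printed 5′ to 3′ on the gene's strand with the motif in capitals, for Acta1 (chr8:123894964-123895023, minus strand), Mybph (chr1:134193342-134193401, plus), Myl1 (chr1:66945247-66945306, minus), Mylpf (chr7:127211530-127211589, plus) and the fusion gene Tmem182 (chr1:40805533-40805592, plus), whose difference was -0.54 and which was chosen after its value was seen.
Acta1: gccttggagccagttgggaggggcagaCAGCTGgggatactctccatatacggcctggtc
Mybph: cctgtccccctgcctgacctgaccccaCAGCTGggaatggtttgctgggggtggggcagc
Myl1: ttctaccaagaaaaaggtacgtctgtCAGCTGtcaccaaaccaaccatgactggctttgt
Mylpf: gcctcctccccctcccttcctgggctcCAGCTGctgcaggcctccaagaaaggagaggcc
Tmem182: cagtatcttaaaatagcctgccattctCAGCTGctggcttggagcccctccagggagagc
A match is a description of these letters and not of binding in these cells. Of the promoters available, 10 of 19 in the coupling list and 6 of 18 in the fusion list held the motif, and among their members called lower 0 of 2 and 1 of 4 did.

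Targets of p53 were the list with the highest share of members called higher, 12 of 32 (median 0.39) against 3.64% of all genes, and 2 were called lower. The sestrin gene Sesn2, which restrains mTORC1 under stress, had 11.43, 11.52 and 11.28 with etoposide and 9.70, 9.83 and 9.70 after differentiation, 3.17-fold higher (1.66 ± 0.09, adjusted p = 2.6e-10). Pidd1, whose product assembles a caspase-2 activating complex, had 9.16, 9.31 and 9.13 against 7.66, 7.73 and 7.59, 2.91-fold higher. The xylulose reductase gene Dcxr (1.47) and the antiproliferative gene Btg2 (1.05) followed, again with no overlap of arrays. Among further members, named after their values were seen, Psrc1 (0.98), Trp53inp1 (0.96), the translesion polymerase gene Polk (0.91), the p53 ubiquitin ligase gene Mdm2 (0.88), Ccng1 (0.60) and the BH3-only gene Bbc3 (0.59) were called higher. Gadd45a ran the other way, with 9.24, 9.12 and 9.36 with etoposide and 10.23, 10.24 and 10.19 after differentiation (-0.98 ± 0.07, adjusted p = 1.3e-08), and so did Sesn1 (-0.76), also named after its value was seen. Fas (0.46), Pmaip1 (0.34) and Ddb2 (-0.20) were not called. With the array-median covariate the counts were 13 higher and 2 lower.

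Immediate early and stress transcription factors gave 4 higher and 3 lower calls among 32 genes. The AP-1 gene Fosl1 had 11.37, 11.51 and 11.39 with etoposide and 10.24, 10.14 and 10.18 after differentiation (1.24 ± 0.06, adjusted p = 5.4e-11), and Klf4 (0.75) and Atf3 (0.73) were higher too. Myc (-0.63) and the small Maf gene Mafk (-0.63) were lower, and Myc lost its call with the covariate. Among 24 growth factor and MAPK feedback genes 3 were higher and 3 lower, with the ETS factor gene Etv4 (1.22), the platelet-derived growth factor gene Pdgfa (0.73) and the epiregulin gene Ereg (0.54) on the higher side, and Fgf2 (-1.08) and the feedback inhibitor gene Spry2 (-0.54) on the lower.

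No gene of DNA break repair or topoisomerase function was called higher among 46, and 5 were called lower. Over all genes 3.64% were called higher and 6.30% lower, and whether the list differed from these shares was not tested. The topoisomerase II beta gene Top2b, which encodes a target of the drug, had 10.35, 9.95 and 10.03 with etoposide and 10.91, 10.89 and 10.87 after differentiation (-0.78 ± 0.11, adjusted p = 1.8e-05). Top1 (-0.71), the kinase genes Atr (-0.71) and Atm (-0.56) and the recombination gene Brca2 (-0.60) were the others, and the topoisomerase II alpha gene Top2a (-0.36) was not called. In all 5 the etoposide arrays were below the differentiation arrays, with etoposide array 1 the nearest to them. None of the 5 kept its call with the array-median covariate, and 8 genes of the list were called lower without etoposide array 1. Chek1 (-0.29), Rad51c (0.05) and H2ax (0.05) did not pass either.

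**Figure D3:**
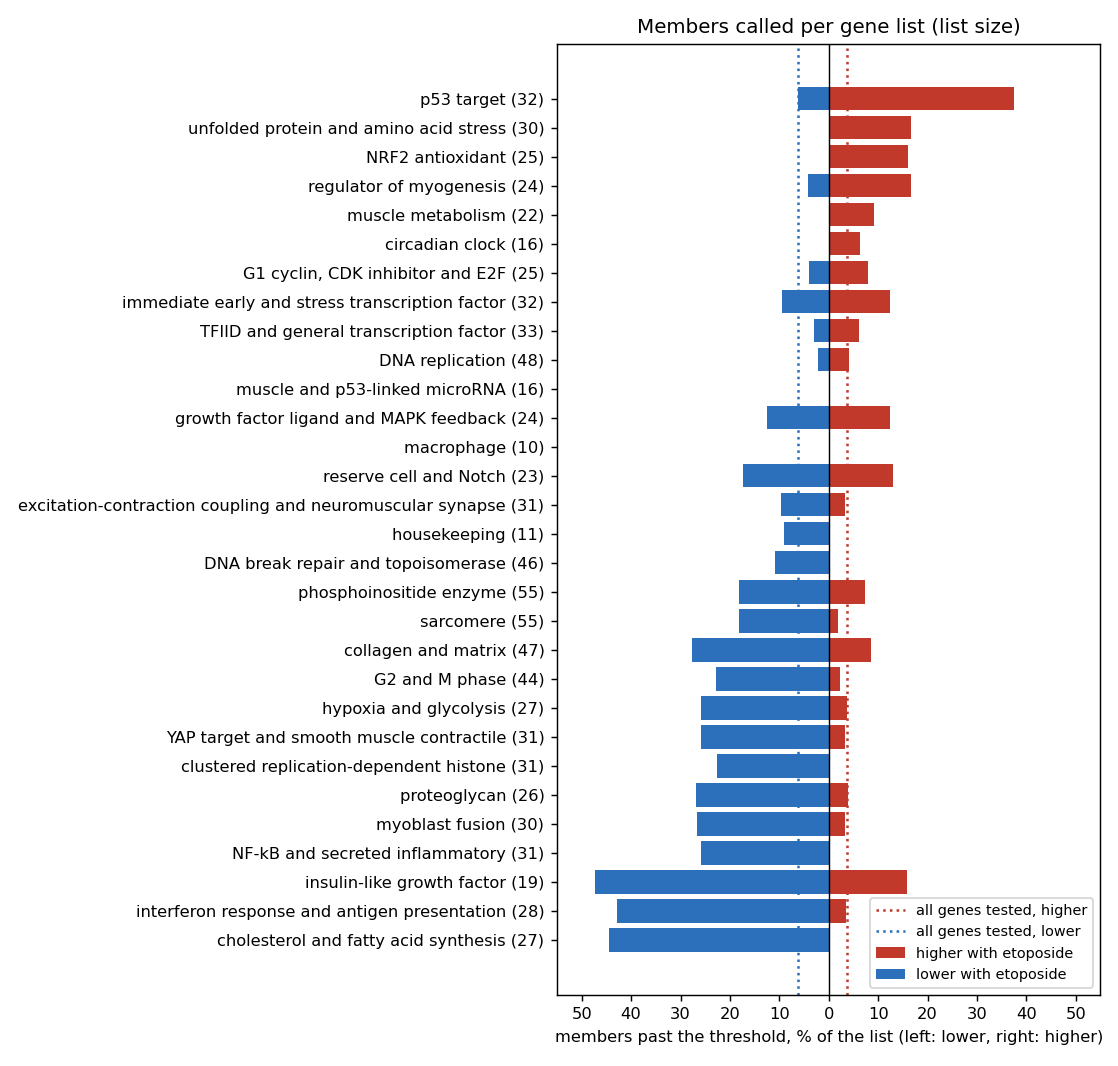
Percent of each gene list called higher (red, to the right) or lower (blue, to the left) in etoposide-treated against differentiated PIP4K2B-depleted WT-TAF3 cells, with the list size in brackets and the shares of all genes tested as dotted lines (3.64% higher, 6.30% lower). Targets of p53 had the longest bar to the right, 12 of 32, and the insulin-like growth factor, cholesterol and interferon lists the longest bars to the left, 9 of 19, 12 of 27 and 12 of 28.

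Of 48 DNA replication genes 2 were higher and 1 lower: the licensing factor gene Cdt1 (0.74), the cyclin E gene Ccne1 (0.62), and the polymerase alpha gene Pola1 (-0.84), whose call was lost with the covariate. Over all genes 3.64% were higher and 6.30% lower, so these counts do not set the list apart. The helicase genes Mcm2 (0.02) and Mcm5 (0.05) and the sliding clamp gene Pcna (-0.05) were near 0. Of 44 genes of G2 and M phase 10 were lower and 1 higher, with a list median of -0.30. The spindle gene Aspm had 8.31, 7.83 and 7.75 with etoposide and 9.02, 9.19 and 9.24 after differentiation (-1.18 ± 0.12, adjusted p = 8.2e-07). The kinetochore genes Cenpf (-0.83) and Cenpe (-0.70) and the kinesin gene Kif4 (-0.72) were lower too, and Cdc25b, the phosphatase gene that activates CDK1, was higher with 10.63, 10.69 and 10.63 against 9.74, 9.80 and 9.76 (0.89). Cdk1 (0.10), Plk1 (-0.23) and Aurka (0.08) were not called. The 10 lower calls came down to 2 with the array-median covariate. Among 25 genes of G1 the cyclin D genes Ccnd1 (0.70) and Ccnd2 (0.57) were higher and the E2F partner gene Tfdp2 (-1.09) lower. Counts this small do not set the G1 list apart from the shares of all genes either.

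Of 31 clustered histone genes 7 were lower and none higher, led by the linker histone genes H1f2 (-0.73) and H1f1 (-0.61) and by H2ac4 (-0.61). H3c15 was the weakest of them, with 7.66, 7.09 and 7.21 with etoposide and 7.62, 7.83 and 8.02 after differentiation, so that its arrays overlapped, and its difference of -0.50 turned to 0.12 with the covariate. Histone genes have near-identical copies that probes may not separate, so single members are uncertain. With the covariate 3 histone genes were lower.

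Genes with a long genomic span were called lower more often than short genes. A gene's span is the distance from its start to its end in RefSeq GRCm38.p6, introns included, and 18553 protein-coding genes had one. The median span was 13.4 kb among genes called higher, 52.7 kb among those called lower and 18.2 kb among the rest. Of genes up to 5 kb, 2.06% were called lower and 3.90% higher. Of genes from 50 to 100 kb, 12.7% were lower and 2.67% higher, and of the 927 genes over 200 kb, 16.8% were lower and 2.48% higher. Signal differs with span, so the shares were also taken over genes with a mean signal over 8. There, 4.19% of genes up to 5 kb and 35.6% of the 410 genes over 200 kb were called lower, while 11.2% and 4.15% were called higher.

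The rise with span was seen in each genotype and was smaller once array medians entered the fit. Among the bright genes over 200 kb the share called lower was 35.6% in PIP4K2B-depleted KK-TAF3 cells and 19.5% in undepleted WT-TAF3 cells. With the array median as a covariate it was 12.7% in PIP4K2B-depleted WT-TAF3 cells, against 2.85% of bright genes up to 5 kb. It was 44.9% without etoposide array 1 and 27.3% without etoposide array 3, the highest and lowest of the values with 1 array left out. Fusion genes (median span 65.7 kb) and phosphoinositide enzyme genes (62.8 kb) were among the longer lists described here. So were collagen and matrix genes (49.5 kb), insulin-like growth factor genes (48.8 kb) and repair genes (43.5 kb). The part that span has in the counts of these lists was not tested.

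**Figure D4:**
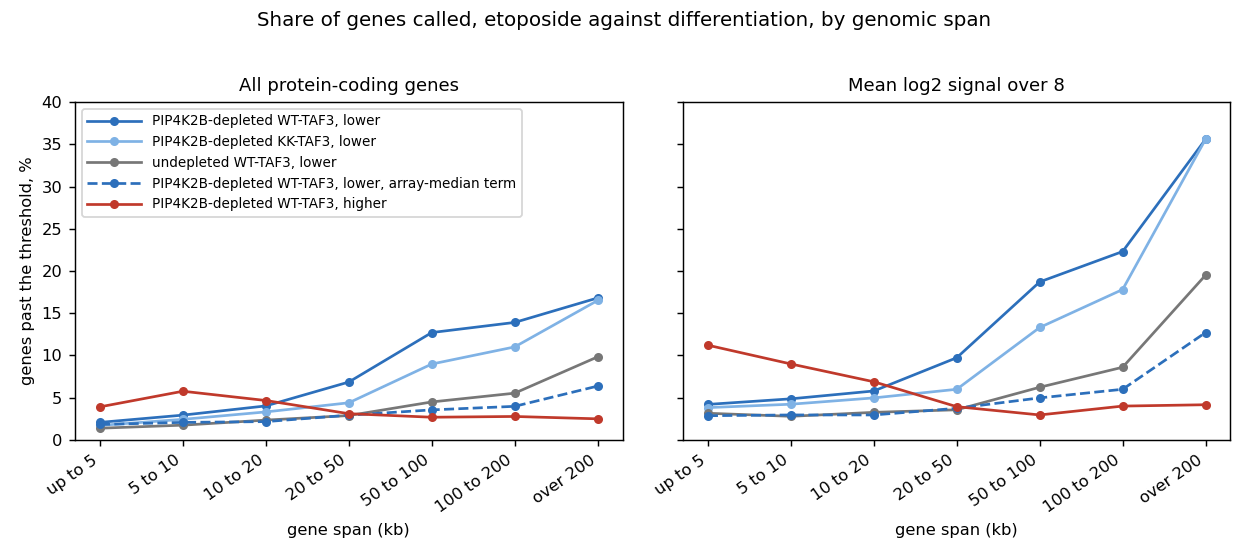
Percent of genes called, etoposide against differentiation, by genomic span in kb, for all protein-coding genes (left) and for those with mean log2 signal over 8 (right), in PIP4K2B-depleted WT-TAF3 cells (dark blue lower, red higher, dashed lower with the array-median term), PIP4K2B-depleted KK-TAF3 cells (light blue, lower) and undepleted WT-TAF3 cells (grey, lower). The share called lower was larger in the longest bin than in the shortest in each line, and reached 35.6% of bright genes over 200 kb in PIP4K2B-depleted WT-TAF3 cells and 12.7% with the term.

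Matrix genes were called lower more often than higher, with exceptions in both directions. Of 47 collagen and matrix genes 13 were lower and 4 higher. The basement membrane nidogen gene Nid2 had 10.67, 10.41 and 10.25 with etoposide and 12.68, 12.64 and 12.58 after differentiation, 4.55-fold lower (-2.19 ± 0.14, adjusted p = 1.3e-09). The collagen VI genes Col6a1 (-1.19) and Col6a2 (-1.03), the collagen lysyl hydroxylase gene Plod2 (-1.13) and the collagen I gene Col1a1 (-0.89) were lower, of which Col6a2 and Col1a1 were picked out after their values were seen. The collagen XVIII gene Col18a1 (1.30) and the tenascin C gene Tnc (1.25) were higher, Tnc with 12.81, 12.53 and 12.38 with etoposide and 11.32, 11.31 and 11.33 after differentiation. The arrays of Tnc and Nid2 were separated by treatment.

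Among 26 proteoglycans 7 were lower and 1 higher. The largest falls were those of decorin and lumican, which are small leucine-rich members, while others of that class, Fmod (0.26), Podn (0.33), Kera (-0.01) and Bgn (-0.27), were not called. Decorin, Dcn, was at 10.72, 10.45 and 10.60 with etoposide and 13.14, 13.10 and 13.12 after differentiation, 5.79-fold lower (-2.53 ± 0.07, adjusted p = 1.5e-14). Lumican, Lum, was 7.28-fold lower, with 5.38, 5.38 and 5.44 against 8.16, 8.29 and 8.35. Prelp (-1.62) and the asporin gene Aspn (-1.12) were lower as well, and versican, Vcan, a large aggregating proteoglycan, was the member called higher, with 11.55, 11.04 and 10.94 against 9.46, 9.45 and 9.51. With the covariate 3 proteoglycan genes were lower and Aspn was not among them, and without etoposide array 3 it was 4 genes.

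The insulin-like growth factor axis had 9 of 19 genes called lower and 3 higher. Every ligand, receptor and adaptor gene of the list was on the lower side. The ligand gene Igf2 had 7.84, 7.88 and 7.99 with etoposide and 9.10, 9.25 and 9.33 after differentiation (-1.32 ± 0.11, adjusted p = 2.8e-08), and Igf1 was at -1.08. The receptor gene Igf1r had 10.42, 10.08 and 9.55 against 11.66, 11.64 and 11.57 (-1.61 ± 0.21, adjusted p = 1.1e-05). Its etoposide arrays were spread over nearly a log2 unit and all lay below the differentiation arrays. Igf2r (-1.41) and Insr (-1.19), the clearance receptor for IGF2 and the insulin receptor, and the adaptor genes Irs1 (-1.01) and Irs2 (-0.87) were lower too. The binding proteins were divided: Igfbp2 was higher, with 11.06, 11.10 and 11.17 against 9.58, 9.69 and 9.66 (1.47), and Igfbp4 (-0.57) and Igfbp5 (-0.68) were lower. The RNA-binding protein gene Igf2bp3 (0.54) and the stanniocalcin gene Stc2 (0.52) were the other members called higher. Igf1, Irs1, Irs2, Igfbp5, Igf2bp3 and Stc2 were named after their values were seen. Igf2r and Insr lost their calls with the covariate, which left 2 higher and 6 lower.

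Phosphoinositide enzymes were of interest because the depleted kinase is one of them. Of 55 genes 10 were lower and 4 higher. Pip4k2a, the alpha isoform of the depleted kinase, had 11.18, 10.86 and 11.06 with etoposide and 11.59, 11.61 and 11.65 after differentiation (-0.58 ± 0.07), without overlap, and lost its call with the covariate. The gamma isoform gene Pip4k2c (0.14) was not called. The phospholipase gene Plcb4 (-1.17), the myotubularin-family phosphatase gene Mtmr1 (-0.90), the PI3-kinase catalytic gene Pik3ca (-0.81) and the PI4P phosphatase gene Sacm1l (-0.75) were lower, and the 5-phosphatase gene Inpp5j was higher (0.84). With the covariate 2 members were lower. In TFIID and the general transcription factors, the complexes that TAF3 works in, 2 of 33 genes were higher, the TFIIH gene Gtf2h4 (0.65) and Taf10 (0.50), and Taf1 (-0.53) was lower, and both TAF genes lost their calls with the covariate. Over all genes 3.64% were higher and 6.30% lower, so these counts do not set the TFIID list apart.

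Of 27 genes of cholesterol and fatty acid synthesis 12 were lower and none higher. The synthase gene Hmgcs1, which makes the substrate of HMG-CoA reductase, had 10.64, 10.44 and 10.55 with etoposide and 11.63, 11.71 and 11.60 after differentiation, 2.15-fold lower (-1.10 ± 0.07, adjusted p = 4.5e-10). Idi1 (-1.16), Msmo1 (-1.08) and Sqle (-0.79), which act further along the pathway, and Insig1 (-1.07), which holds back its transcription factors, were lower as well. The transcription factor genes Srebf1 (-0.10) and Srebf2 (-0.29) and the fatty acid synthase gene Fasn (-0.51, adjusted p = 0.07) were not called. With the covariate 6 members were lower and Idi1 was not.

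Of 28 interferon-stimulated and antigen presentation genes 12 were lower and 1 higher, and their differentiation arrays were uneven. Ifit3 had 6.50, 6.37 and 6.15 with etoposide and 7.36, 9.71 and 8.43 after differentiation (-2.16 ± 0.42, adjusted p = 7.0e-04). Ifit1, a related gene that binds viral RNA ends, had 7.34, 6.82 and 7.18 against 7.90, 9.53 and 8.29, and the protease gene Usp18 had 6.91, 7.19 and 7.27 against 7.29, 9.33 and 7.93. Differentiation array 2 was the highest in all 3 genes, and the groups did not overlap, although Usp18 came close. Without that array 10 members were lower, Ifit3 kept its call and Usp18 did not. The poly-ADP-ribosyl transferase gene Parp14 (-1.03 ± 0.09) and Ifit2 (-0.96 ± 0.13) were more even. With the array-median covariate 3 members were lower and Ifit3, Ifit1, Ifit2 and Usp18 lost their calls.

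Promoters of 4 of the interferon genes called lower held the interferon-stimulated response element searched as GAAANNGAAA on both strands, which stood in 3.44% of all promoters of the same window, in 11 of 23 available in the interferon list and in 4 of 9 available among its lower members. They are shown because this element is the site through which interferon is known to switch on its target genes. As for CAGCTG, the share of all is of promoters and the list counts are of genes. Capitals mark the match, which reads as the reverse complement here: Ifit3 (chr19:34583348-34583407, plus strand), Ifit1 (chr19:34640760-34640819, plus), Stat2 (chr10:128270251-128270310, plus) and Ddx58 (chr4:40239789-40239848, minus). Stat2 (-0.58), a transcription factor of the response, and Ddx58 (-0.87), the RNA sensor RIG-I, were named for their promoters after their values were seen.
Ifit3: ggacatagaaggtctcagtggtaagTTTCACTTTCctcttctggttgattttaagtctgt
Ifit1: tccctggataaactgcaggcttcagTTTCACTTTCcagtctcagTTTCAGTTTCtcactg
Stat2: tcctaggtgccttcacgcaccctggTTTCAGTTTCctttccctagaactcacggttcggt
Ddx58: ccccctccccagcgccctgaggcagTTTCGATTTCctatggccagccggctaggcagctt
The whole promoter held the element in 2 places in Ifit1 and Ifit3 and in 1 place in Stat2 and Ddx58. The Ifit3 window (chr19:34583279-34583578) lay inside the gene, whose outer start is at 34583119.

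Most members of the other stress and signalling lists were not called. Among 31 NF-kB and secreted inflammatory genes 8 were lower and none higher, led by the collagenase gene Mmp13 (-1.66), Vcam1 (-1.09) and the chemokine genes Cxcl12 (-1.07) and Ccl7 (-0.99). Among 27 hypoxia and glycolysis genes 7 were lower, with Ndrg1 (-1.04), the kinase gene Pdk1 (-0.99), the prolyl hydroxylase gene P4ha1 (-0.90) and Bnip3 (-0.79), while the mTORC1 inhibitor gene Ddit4 was higher (1.14). The median of that list was 0.02, and with the array-median covariate 4 members were lower. Slc2a1 (0.32), Vegfa (0.17), Pgk1 (0.03), Ldha (0.02), Mxi1 (-0.37) and Egln1 (-0.48) were not called. Those uncalled members were named after their values were seen. Among 31 YAP targets and smooth muscle genes 8 were lower and 1 higher, with Amotl2 (-1.28), the matricellular gene Ccn2 (-0.90), the kinase gene Lats2 (-0.78) and Tead1 (-0.88), which encodes the DNA-binding partner of YAP and lost its call with the covariate. The etoposide and differentiation arrays of the called genes named in this paragraph did not overlap.

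Of 30 unfolded protein and amino acid stress genes 5 were higher, none was lower and 25 were not called, where 3.64% of all genes were higher. The 5 were the cystathionine gamma-lyase gene Cth, with 9.87, 9.59 and 9.85 with etoposide and 8.41, 8.70 and 8.61 after differentiation (1.20), and Asns (0.66), Chac1 (0.61), Psat1 (0.59) and Phgdh (0.56), the asparagine synthetase gene, a glutathione-degrading enzyme gene and genes of serine synthesis. Of 25 NRF2 antioxidant genes 4 were higher, none was lower and 21 were not called. Nqo1 led them with 11.23, 11.08 and 11.50 against 9.13, 9.26 and 9.19, 4.22-fold higher (2.08 ± 0.13, adjusted p = 1.1e-09), followed by the heme oxygenase gene Hmox1 (0.67), the glutathione transferase gene Gsta4 (0.63) and the glutathione synthesis gene Gclm (0.50, a call lost without any 1 of 3 of the arrays). All 9 were separated by treatment on their arrays, which describes genes chosen by their calls and adds no support.

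The etoposide against differentiation contrast was next compared between genotypes, which asks whether PIP4K2B depletion and the TAF3 mutant go with another size of change. The 3 contrasts share no array. Of the 726 genes higher in PIP4K2B-depleted WT-TAF3 cells, 492 (67.8%) were also higher in the KK-TAF3 cells, 70.1% of the 702 called there (3.52% of all genes). In undepleted WT-TAF3 cells 475 of the 726 (65.4%) were higher, 50.5% of the 940 called there (4.71% of all genes). Of the 1257 lower genes, 798 (63.5%) were lower in KK-TAF3 cells, 83.2% of the 959 there (4.81% of all genes), and 477 (37.9%) in undepleted cells, 82.0% of the 582 there (2.92% of all genes). The calls came to 8.33% of all genes in KK-TAF3 cells and 7.63% in undepleted cells. In all 3 genotypes 398 genes were higher and 429 lower. Across the 19938 genes the differences correlated at 0.871 with those in KK-TAF3 cells and 0.619 with those in undepleted cells, where genes are not independent replicates.

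The test of the difference between the contrasts of WT-TAF3 and KK-TAF3 cells, both PIP4K2B-depleted, called 30 genes, 0.150% of those tested, 27 of them (0.135%) with a lower and 3 (0.0150%) with a higher change in WT-TAF3 cells. Muscle genes were prominent among them. Mymk differed by -1.50 ± 0.15 (adjusted p = 8.6e-05), since its change was -1.81 in WT-TAF3 cells and -0.31 in KK-TAF3 cells. Casq2 differed by -1.37 ± 0.12 (adjusted p = 1.7e-05), with changes of -1.15 and 0.21, and Tnnc1 by -1.14 ± 0.15, with changes of -1.47 and -0.33. Myog (-0.86), Myh3 (-0.90) and the cardiac troponin T gene Tnnt2 (-0.94) were called as well, and 6 of the 55 sarcomere genes, 2 of the 30 fusion genes and 1 of the 31 coupling genes were lower by this test and none was higher. Of the cholesterol, p53 and insulin-like growth factor genes none was called by it. All 30 genes kept their calls with the array-median covariate.

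**Figure D5:**
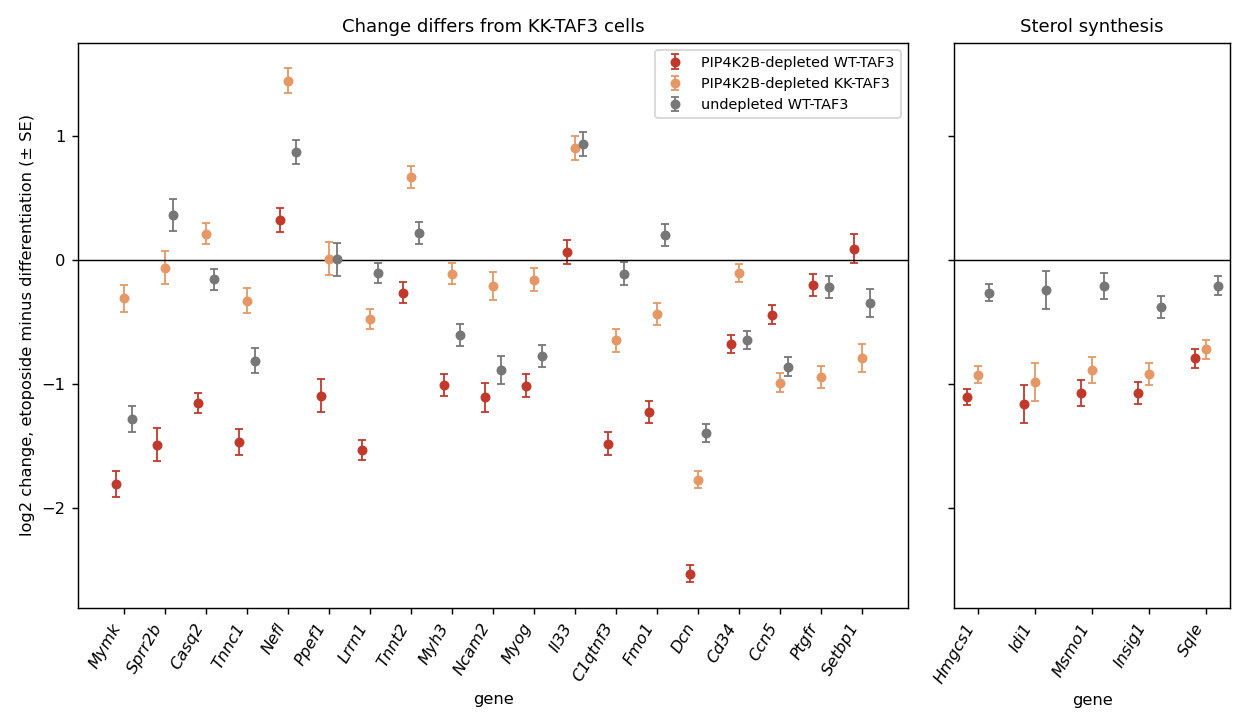
Log2 difference, etoposide minus differentiation, with its SE, in PIP4K2B-depleted WT-TAF3 cells (red), PIP4K2B-depleted KK-TAF3 cells (orange) and undepleted WT-TAF3 cells (grey), for named genes whose change differed from that in KK-TAF3 cells (left) and for 5 sterol synthesis genes (right). Mymk stood at -1.81, -0.31 and -1.28 in that order, and Hmgcs1 at -1.10, -0.92 and -0.26.

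Non-muscle genes in this set of 30 included Sprr2b, which encodes a small proline-rich protein of epithelia. Its signal was 8.11, 7.88 and 7.98 with etoposide and 9.45, 9.55 and 9.46 after differentiation, and its change was -1.49 in PIP4K2B-depleted WT-TAF3 cells, -0.06 in KK-TAF3 cells and 0.37 in undepleted cells. Probes for the Sprr2 genes may not separate their near-identical copies. Ppef1, a phosphatase gene, changed by -1.10, 0.01 and 0.01 in the same order, and Lrrn1, a leucine-rich repeat gene, by -1.53, -0.48 and -0.10. Dcn differed from KK-TAF3 cells by -0.76 and from undepleted cells by -1.14. Il33, an alarmin gene, was at 0.07 here (adjusted p = 0.62) and at 0.91 and 0.94 in the other genotypes, and the neurofilament gene Nefl was at 0.32 against 1.45 and 0.87.

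Against undepleted WT-TAF3 cells 801 genes (4.02%) differed in their change, 388 (1.95%) higher and 413 (2.07%) lower, and this count was unstable. It was 60 with the array-median covariate, 47 of them among the 801, and ran from 180 to 2668 when 1 array at a time was left out. It was 193 without etoposide array 2 of the PIP4K2B-depleted WT-TAF3 cells. Sterol genes were a visible group, with 11 of 27 lower by this test, 0 called in undepleted cells in either direction and 11 lower in KK-TAF3 cells. With the covariate 2 of the 27 were lower by the same test. Hmgcs1 differed by -0.84 ± 0.09 (adjusted p = 5.5e-05), Idi1 by -0.93 and Msmo1 by -0.87, and of the 5 sterol genes named Hmgcs1 alone kept its call with the covariate. Of the sarcomere genes 8 were lower and 1 higher by this test, and 3 were lower and 0 higher with the covariate. Mylpf (-0.999) and Tnnt3 (-0.99) were among the lower genes and kept their calls with the covariate. Trdn (-1.17), Casq2 (-0.997), Dcn (-1.14) and Mest (-0.93) kept theirs too. Genes whose difference ran upward included Trp53i11, at -1.50 here and -2.66 in undepleted cells, and the BMP antagonist gene Grem1, at 0.69 and -0.45. Car9, the hypoxia-induced carbonic anhydrase gene, was at 0.37 against 1.96.

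None of 16 muscle and p53-linked microRNA genes, 10 macrophage, 8 fat, 7 endothelial or 6 bone and cartilage genes was called, and 1 of 11 housekeeping genes was, the translation factor gene Eif4a2 (-0.66), which lost its call with the covariate. Some microRNA rows had low signal. Means over all arrays were 3.59 for Mir1a-1, 3.24 for Mir1a-2 and 3.88 for Mir206, against 7.30 for Mir143. A change in the dim rows could be missed. Of the 16 clock genes the repressor gene Nr1d1 was higher (0.66). Of 7 neuron and glia genes Stmn2 was higher (2.02). Of 7 epithelial genes the keratin genes Krt19 (1.31) and Krt14 (1.19) were higher, against 3.64% of all genes, with Krt19 at 9.03, 8.83 and 8.77 with etoposide and 7.61, 7.51 and 7.59 after differentiation.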

How the data were processed

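Expression in 18 cultures of the C2C12 line was measured on Affymetrix mouse gene arrays after amplification of 100 ng RNA. The authors deposited log2 values that they had made with RMA (background correction, quantile normalization and summarization) in Expression Console, whose version is not given in the sources used here. The number of arrays, not a read depth, limits precision. The probe annotation that came with the values is that of the first gene array generation, while the study's supplement names the second. The series text gives another number of differentiation days than the labels do, and the labels were followed. Each gene was represented by its brightest row with exactly 1 symbol, which gave 19938 genes.

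The 18 arrays were fitted as 6 group means in limma 3.58.1 under R 4.3.3 (empirical Bayes, 12 residual and 6.05 prior degrees of freedom). The comparison was taken as a contrast, with its differences from the same contrast in the other genotypes. The threshold was a Benjamini-Hochberg adjusted p under 0.05 over all genes and more than 1.4-fold. The study describes biological triplicates, and p-values cover the spread between those arrays. In simulated data of the same size the fit recovered 66 of 67 genes planted at a log2 change of 0.75 in the main comparison. In the difference from undepleted cells it recovered 59 of the 67. The simulated noise had the same spread for a gene in every group and no shift of whole arrays. It therefore does not cover the uneven etoposide arrays or the effect of array medians. The members and gene lists were chosen with earlier results of these data known. Named genes were the targeted gene, genes the paper names, the 12 largest rises and falls with separated arrays (without predicted genes, olfactory receptors and small RNAs), up to 5 called members of each list, and up to 8 genes per direction in each difference between genotypes. Alternatives changed the threshold, prior, filter, probe choice, scaling, replicate block and arrays used.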

Additional observations from a re-analysis of the deposited data

Results flagged for a closer look

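The results below were picked out because the test of the difference between genotypes called them, that is, the change between etoposide and differentiation in PIP4K2B-depleted WT-TAF3 cells differed from the change in other cells. Against PIP4K2B-depleted KK-TAF3 cells 30 genes differed. Of those named here the muscle genes were Mymk (-1.50), Casq2 (-1.37), Tnnc1 (-1.14), Tnnt2 (-0.94), Myh3 (-0.90) and Myog (-0.86), each with a lower change in WT-TAF3 cells. Further genes with a lower change were Sprr2b (-1.43), Nefl (-1.13), Ppef1 (-1.11), Lrrn1 (-1.06), the adhesion gene Ncam2 (-0.90), the adipokine gene C1qtnf3 (-0.84), Il33 (-0.84), the monooxygenase gene Fmo1 (-0.79), Dcn (-0.76) and the progenitor surface gene Cd34 (-0.57). Setbp1 (0.88), the prostaglandin receptor gene Ptgfr (0.74) and the matricellular gene Ccn5 (0.55) had a higher change, with 0.09, -0.20 and -0.44 in WT-TAF3 cells against -0.79, -0.94 and -0.99 in KK-TAF3 cells. Ncam2, Cd34, Setbp1, Ptgfr, Ccn5, Ppef1 and Il33 each lost the call in at least 1 fit with an array left out.

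Against WT-TAF3 cells without PIP4K2B depletion 801 genes differed, with 11 cholesterol and fatty acid genes and 8 sarcomere genes on the lower side. With the array median as a covariate those list counts were 2 and 3. Genes that also passed with the array median as a covariate were Sprr2b (-1.86), Car9 (-1.59), Fmo1 (-1.43), Lrrn1 (-1.43), C1qtnf3 (-1.37), Lix1 (-1.25), Trdn (-1.17), Dcn (-1.14), Mylpf (-0.999), Casq2 (-0.997), Tnnt3 (-0.99), Mest (-0.93) and Hmgcs1 (-0.84), and in the other direction Trp53i11 (1.16), Grem1 (1.14) and the hepatocyte growth factor gene Hgf (0.77). Genes that did not pass with the covariate were, in the muscle lists, Myl1 (-1.26), Myom2 (-0.91), Tnnc1 (-0.66), Cacna2d1 (-0.53), Mymk (-0.53) and Itga7 (-0.50), with Id1 at 0.50. Among sterol and hypoxia genes they were Idi1 (-0.93), Msmo1 (-0.87), Pdk1 (-0.75), Insig1 (-0.69), Bnip3 (-0.68) and Sqle (-0.59). Among matrix, secreted and phosphoinositide genes they were Aspn (-0.89), Serpina6 (-0.88), Il33 (-0.87), Dhrs3 (-0.64), Plcb4 (-0.59), Sacm1l (-0.55), Mtmr1 (-0.51) and Plod2 (-0.49). The remainder were Frmpd1 (-1.29), Ppef1 (-1.10), Daam2 (-0.82), Slc24a3 (-0.76), Stmn2 (-0.56), Nefl (-0.55), H1f2 (-0.51), Ces2g (0.56), Cdt1 (0.59), H1f1 (0.60), Etv4 (0.63), Rasd2 (0.77), Slc6a2 (0.80), Unc45bos (0.82), Klk1b11 (0.84) and Prp2 (1.03). Klk1b11 and the linker histone genes belong to families of close copies, so their single values are uncertain.

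One signal lay outside the named genes. Of 12146 transcript clusters in no line of the probe annotation, 672 (5.53%) passed the threshold between etoposide and differentiation, 336 higher and 336 lower, and they have no gene name here.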

How the results depend on the processing

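The count of 1983 genes between etoposide and differentiation stayed within 1.5 times under most settings. It was 6925 with no fold limit, 536 in a test against 1.4-fold and 1161 with the array median as a covariate, and 1754 to 2722 with 1 array left out. Members of the lists past the threshold numbered 212, and 471 with no fold limit, 89 in the test against 1.4-fold and 201 to 238 with 1 array left out. Of the named genes 154 passed, 98 in the test against 1.4-fold and 147 to 153 with 1 array left out. The 30 genes that differed from KK-TAF3 cells became 143 at an unadjusted p, 2 in the test against 1.4-fold, 15 with only the arrays compared, 16 over every transcript cluster and 18 to 60 with 1 array left out. The 801 genes that differed from undepleted cells became 1365 at an unadjusted p, 1329 with no fold limit, 10 in the test against 1.4-fold, 455 with only the arrays compared, 483 above the median signal, 274 over every cluster, 421 after a second quantile normalization, 60 with the covariate and 180 to 2668 with 1 array left out. Settings with fewer arrays or genes have less power by construction, and for the other changes the cause was not tested. With the covariate the sign of H3c15 (0.12), Prp2 (-0.18) and Unc45bos (-0.029) turned. Shares by gene span with the covariate and with arrays left out were chosen after seeing the data. They gave 4.94% and 11.8% to 20.6% called lower for genes over 100 kb, against 15.1%.

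Deviations of etoposide and differentiation arrays with the same replicate number correlated at -0.418, -0.344 and 0.062. Those of arrays with unlike numbers correlated at -0.131 to 0.422. Shifts of whole arrays can enter these values, so they cannot tell whether the replicate numbers pair the arrays. With the replicate block 1988 genes were called, 654 in the difference from undepleted cells and 31 in the difference from KK-TAF3 cells.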

Other observations

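Genes of reserve cells and Notch signalling were divided between the treatments. Of 23 genes 3 were higher and 4 lower in etoposide-treated cells. The Notch ligand gene Dll1 had 7.67, 7.96 and 7.57 with etoposide and 9.16, 9.35 and 9.18 after differentiation, 2.82-fold lower (-1.50 ± 0.10, adjusted p = 1.3e-09). The receptor gene Notch1 had 10.50, 10.25 and 9.92 against 9.07, 9.05 and 8.91 (1.22), and the Notch target gene Hey1 had 8.91, 8.77 and 8.88 against 8.08, 7.97 and 7.99 (0.84). The arrays of all 3 genes were separated by treatment. Another ligand gene, Jag2, was the third member called higher (0.67), so the ligand genes called lay on both sides. The ligand gene Jag1 (-0.48, adjusted p = 0.002) was 1.39-fold lower and so did not pass the fold limit. Hes1 (0.15), Heyl (0.37) and Nrarp (0.40) of the same list were not called. The other receptor genes of the list, Notch2 at -0.52 (adjusted p = 0.06) and Notch3 at -0.15, were not called. Jag1, Jag2, Hes1, Heyl, Nrarp, Notch2 and Notch3 were named after their values were seen. The TGF-beta co-receptor gene Tgfbr3 (-1.10) and Cd34 (-0.68) were lower. The same contrast gave -1.38 for Dll1, 1.02 for Notch1 and 0.90 for Hey1 in PIP4K2B-depleted KK-TAF3 cells, and -1.31, 0.85 and 0.98 in undepleted WT-TAF3 cells.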
